A study of Mus musculus with 20 samples.

Results

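The 32 genes described here encode enzymes of cholesterol synthesis and of lipogenesis, the making of fatty acids and of the glycerolipids that store them, together with the proteins that sense sterols and set the level of both pathways. They were chosen by gene name, and all 32 were found among the 54532 genes of both count tables. By role they comprised 13 genes of sterol synthesis, 5 of sterol sensing and transport, 6 of fatty acid synthesis, 6 of elongation and desaturation and 2 of glycerolipid assembly. The 6 fatty acid synthesis genes and the 6 elongation and desaturation genes were also pooled as 12 fatty acid genes and set against the 13 sterol genes.

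RNA was sequenced from the livers of WT C57BL/6 mice in which colorectal liver metastases (CRLM) grew from 1000000 injected MC38 cells, a mouse colon adenocarcinoma line of the same strain, which reached the liver from the spleen through the portal vein. Normal liver (con, n = 2) came at day 0 from mice that received normal saline, and tumor-free liver taken far from the tumor (L-con, n = 1) came at day 12. Metastases were low tumor-sized at day 9 (Lt, n = 2), medium tumor-sized at day 9 (Mt3, n = 2) and at day 11 (Mt2 and Mt1, n = 2 each) and high tumor-sized at day 12 (Ht, 3 libraries). F4/80+ cells, a macrophage gate, and CD11b+ cells, a wider myeloid gate, were isolated with microbeads at day 11 from the tissue type of Mt2 (n = 3 each), so that each population was defined by the bead alone. Ht libraries 1 and 3 were described in the Methods as made identical, and they were therefore summed and counted as 1 sample, which left n = 2. Lt and Mt3 shared day 9 and the medium class spanned days 9 and 11, but Ht was the only high class and the only metastasis group of day 12, and the saline controls were the only group of day 0, so that size and day cannot be told apart in comparisons with Ht or con. Size within day 9 and day within the medium class were not tested. The labels gave the mice as male and the Methods as female. The Methods named 2 livers per group, but the labels did not tie libraries to animals, so that p-values measured only the spread between these samples, which may be technical.

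Total counts ran from 16032085 to 18246623 in the 14 tissue libraries and from 17785496 to 20548370 in the 6 sorted libraries, and 3 counts were at most 0.187 per 1000000 of these unscaled totals. Levels are given as CPM, counts per 1000000 after scaling between samples. Xist had 0 to 3 counts in tissue libraries and 5547 to 21805 in sorted libraries, whereas Ddx3y had 348 to 1421 counts in tissue and 0 in sorted libraries. By these counts the tissue libraries had a male pattern and the sorted libraries a female one. Sex, animal source and kind of sample could therefore not be told apart between the tables. The summed level of 13 hepatocyte markers was 180296 to 216706 CPM in con and 4141 to 6081 CPM in Ht, and all 13 were detected in every tissue sample. Within the 6 Mt libraries the hepatocyte sum was 30799 in Mt2 sample 2 and 28926 in Mt1 sample 2, against 106587 to 146763 in the other 4. Summed levels of 9 fibroblast and stellate cell markers were 369 to 480 CPM in con and 5958 to 6761 CPM in Ht, and those of 8 proliferation markers were 10.1 to 16.3 CPM in con and 1010 to 1023 CPM in Ht. The part of these shifts in the results was not tested. In such bulk samples, fewer cells of a type and less RNA per cell cannot be told apart.

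Cholesterol is built from acetyl-CoA through mevalonate, farnesyl diphosphate, squalene and lanosterol, and the transcription factor SREBP-2, encoded by Srebf2, drives most of the genes of this route when cell sterols are low. SREBP-1, encoded by Srebf1, together with carbohydrate and insulin signals, drives fatty acid synthesis, and the Insig proteins hold both factors in the endoplasmic reticulum when sterols are plentiful. The hepatocyte is known as a main site of both pathways, while dividing cells, tumor cells included, make sterols for their own membranes.

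Promoter sequences were taken from RefSeq (GRCm38.p6) to show the letters that these genes share upstream of their start. A single entry was found for 18 of the 32 genes and several for 6, and Fdps, Fdft1, Sqle, Scd1, Scd2, Stard4, Dgat2 and Fads1 had none. The 250 bases before each start were searched on both strands for TCACNCCAC, a sterol regulatory element (SRE), for CCAAT, the box bound by NF-Y, for GGGCGG, a GC box bound by Sp1, and for the E-box CACGTG. Matches of different motifs overlapped in 0 of the 18 promoters. The CCAAT box was present in 14 of the 18 promoters (77.8%), against 33.8% of all 32851 promoters of the same length. It was present in 8 of 8 sterol synthesis promoters, 2 of 2 of sensing genes, 3 of 5 of fatty acid synthesis genes and 1 of 3 of elongation and desaturation genes. GGGCGG was found in 12 of the 18 (66.7%), among them 8 of 8 sterol synthesis promoters and 1 of 5 fatty acid synthesis promoters, against 32.7% of all promoters. CACGTG was found in 3 of 18 (16.7%), against 6.02% of all promoters. The SRE letters were found in 1 of 18 (5.56%), in the promoter of Hmgcs1 at 137 bases before the start, against 1.05% of all promoters. A match is a description of the letters and not a bound site.

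The promoters of Hmgcs1, Mvk, Nsdhl, Fasn and Fads2 are printed 5′ to 3′ on the strand of the gene, with the SRE and the CCAAT boxes (ATTGG on the other strand) in capitals, since they show the sterol genes with their boxes beside a lipogenic promoter that has them and another, Fads2, that has none. The Hmgcs1 window was chr13:119690101-119690350 (+), that of Mvk chr5:114444019-114444268 (+), that of Nsdhl chrX:72918271-72918520 (+), that of Fasn chr11:120824548-120824797 (-) and that of Fads2 chr19:10101504-10101753 (-).
Hmgcs1: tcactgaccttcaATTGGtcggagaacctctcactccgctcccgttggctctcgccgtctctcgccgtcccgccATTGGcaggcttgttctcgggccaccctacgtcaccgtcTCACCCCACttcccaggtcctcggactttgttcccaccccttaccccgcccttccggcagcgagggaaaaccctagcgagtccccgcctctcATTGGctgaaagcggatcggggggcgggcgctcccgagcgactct
Mvk: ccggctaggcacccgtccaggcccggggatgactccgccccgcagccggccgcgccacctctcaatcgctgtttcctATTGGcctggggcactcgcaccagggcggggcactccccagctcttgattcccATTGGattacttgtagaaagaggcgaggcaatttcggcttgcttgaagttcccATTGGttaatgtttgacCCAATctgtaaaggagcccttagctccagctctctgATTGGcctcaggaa
Nsdhl: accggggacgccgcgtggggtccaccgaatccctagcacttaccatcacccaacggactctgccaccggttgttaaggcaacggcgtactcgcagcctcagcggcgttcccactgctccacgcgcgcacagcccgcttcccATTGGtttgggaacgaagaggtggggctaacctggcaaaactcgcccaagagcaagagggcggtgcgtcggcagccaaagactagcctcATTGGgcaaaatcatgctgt
Fasn: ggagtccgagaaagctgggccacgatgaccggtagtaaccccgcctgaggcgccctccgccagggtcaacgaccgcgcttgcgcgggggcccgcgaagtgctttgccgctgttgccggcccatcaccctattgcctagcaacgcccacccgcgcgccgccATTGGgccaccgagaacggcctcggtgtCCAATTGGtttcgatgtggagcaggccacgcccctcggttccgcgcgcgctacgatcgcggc
Fads2: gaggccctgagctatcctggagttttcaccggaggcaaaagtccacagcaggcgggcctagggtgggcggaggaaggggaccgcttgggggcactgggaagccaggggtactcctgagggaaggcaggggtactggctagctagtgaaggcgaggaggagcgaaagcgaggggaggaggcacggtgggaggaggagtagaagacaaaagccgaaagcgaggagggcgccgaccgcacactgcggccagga

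Scd1 had the highest level of the 32 genes in normal liver. Levels between genes are given as FPKM, which divides by gene length. The gene, which encodes the stearoyl-CoA desaturase of liver and fat, stood at 4699 and 3194 FPKM in con and made up 69.7% and 63.3% of the summed FPKM of all 32 genes. Dgat2, which adds the last acyl chain of triglyceride, ranked second by mean FPKM, at 271 and 305 FPKM. Sc5d, the lathosterol oxidase near the end of the route, had the highest sterol synthesis level in con, at 91.8 and 91.1 FPKM. The level of Mvk, mevalonate kinase, was 7.28 and 7.36 FPKM. Fdps, farnesyl diphosphate synthase, was the lowest at 0.652 and 0.256 FPKM, and it had 9 to 120 counts in any sample, which limits its precision. Fdps overlaps Gm43738 and Gm22935 on the same strand, which had at most 0 and 6 counts, and how reads shared by overlapping genes were counted is not given in the sources used here.

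The order changed at Ht, where Scd2, a second stearoyl-CoA desaturase, ranked first at 66.6 and 75.4 FPKM and Scd1 second at 59.3 and 74.8 FPKM. Scd2 lay above Scd1 within each of the 2 Ht samples, narrowly in the second, and this order was not tested. Scd2 ranked 31 of 32 in con by mean FPKM, 21 for Lt, 19 for Mt3, 7 in Mt2 and 7 in Mt1. The share of Scd1 in the summed FPKM of the 32 genes was 16.5% and 17.0% in Ht. In the sorted cells that share was 1.62% to 2.73% for F4/80+ and 0.653% to 1.08% for CD11b+, and Acly and Fads1 had the highest levels of the 32 genes in both populations.

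Each tissue group was then compared with con to ask how the pathways moved as the metastases grew, and a gene was called where edgeR's quasi-likelihood test gave a Benjamini-Hochberg adjusted p under 0.05 over the 17187 genes tested and the log2 fold change was at least 1 in size. All 3 comparisons used the same 2 con samples, and the values are therefore set side by side only. From con to Lt, 1 of the 32 genes rose and none fell, against 12.7% of all tested genes called, and 2 of the 32 had an unadjusted p under 0.05, against 28.6% of all genes. From con to Mt, the mean of the 3 medium groups, 1 rose and 8 fell, against 20.2% of all genes called higher and 10.3% called lower. From con to Ht, 1 rose and 24 fell, against 25.8% called higher and 24.1% called lower. Over the 32 genes the median log2 change was -0.36 to Lt, -0.52 to Mt and -2.26 to Ht, while that of all genes tested was 0.10, 0.08 and 0.09. From Mt to Ht, 18 of the 32 fell and none rose, against 13.4% of all genes called lower and 1.5% called higher.

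The Mt and Ht counts moved to different degrees when single libraries were left out. Whether they moved more than the counts of all genes was not tested. For Mt, the 9 calls became 3 without con sample 1, 2 without con sample 2, 4 without Mt3 sample 2, 5 without Mt1 sample 2 and 15 without Mt2 sample 1. Over these and the other alternatives, the Mt calls of Scd1, Acacb, Thrsp, Insig2, Fads1, Fads2 and Gpam were each lost at least once. For Ht against con, the 25 calls became 18 to 22 when any of these 4 samples was left out, and the genes lost in at least 1 of them were Idi1, Fdft1, Msmo1, Dhcr7, Acly, Fasn and Elovl6. For Mt to Ht, 0 of the 18 calls were left without either Ht sample, when 0 of all 17187 genes were called, and 10 without Mt3 sample 1. Scaling by total counts in place of TMM (trimmed mean of M-values, the scaling used throughout) moved the median log2 fold change of all genes to 0.40, 0.72 and 1.28 from con to Lt, Mt and Ht and to 0.55 from Mt to Ht. Under it the calls of the 32 genes were 3 higher and 4 lower for Mt, 4 higher and 17 lower for Ht, and 1 higher and 14 lower from Mt to Ht. Of all 17187 genes, 5556 were then called higher and 575 lower for Mt, 8822 and 2249 for Ht, and 2587 and 1773 from Mt to Ht.

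**Figure D1:**
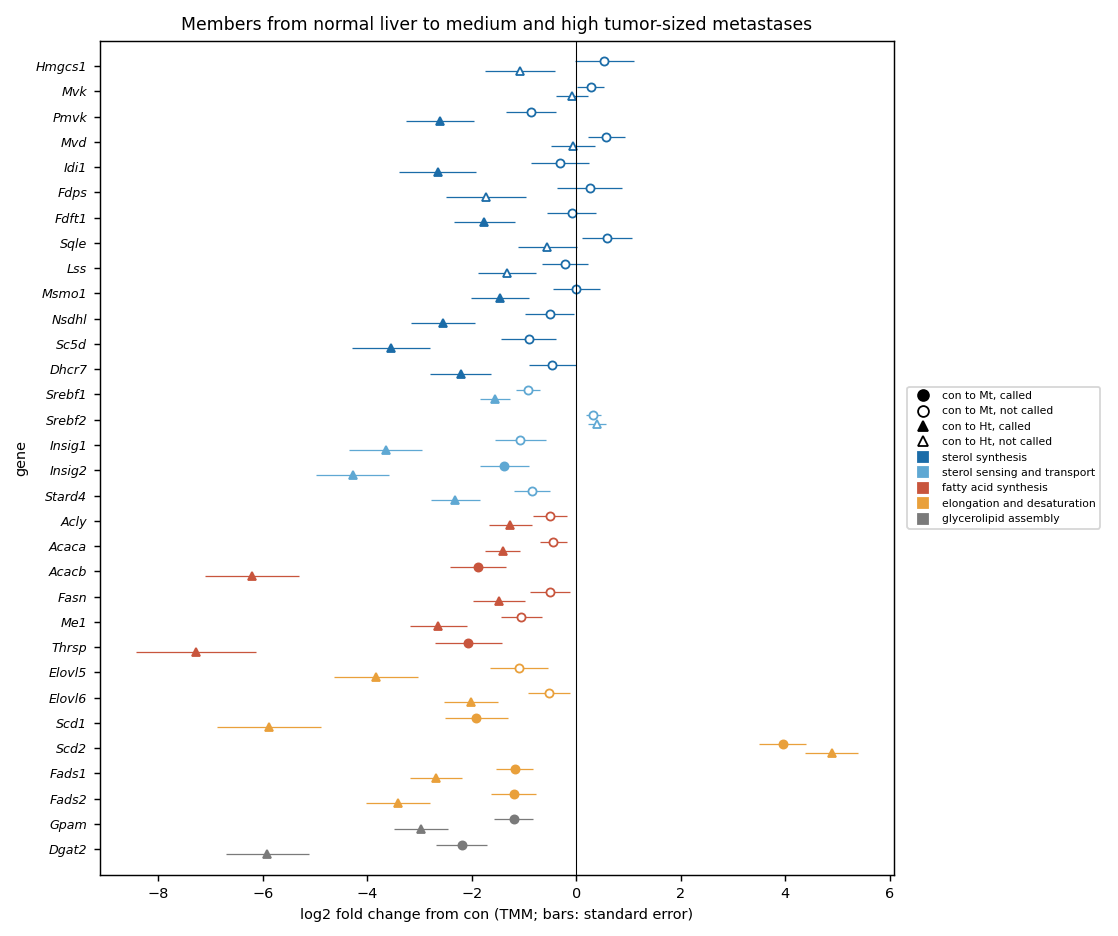
Log2 fold change of the 32 genes from con to Mt (circles) and from con to Ht (triangles), with bars for the standard error, filled symbols for calls and color for role. For Ht 30 of 32 genes lie to the left of 0, Scd2 lies far to the right at 4.89 and Srebf2 at 0.40. With total-count scaling Hmgcs1, Mvk, Mvd and Sqle lie to the right of 0 for Ht.

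None of the 13 sterol synthesis genes was called in low or medium tumor-sized metastases, and at Ht 7 of the 13 fell and 6 did not pass the test. From con to Lt and from con to Mt, 0 of 13 were called by edgeR, 0 of 13 by DESeq2 and 0 of 13 had an unadjusted p under 0.05, with median log2 fold changes of 0.13 and -0.08. Of all genes, DESeq2 called 14.7% to Lt and 32.6% to Mt, and 28.6% and 55.8% had an unadjusted p under 0.05. The values to Mt ran from -0.91 for Sc5d to 0.59 for Sqle, and 2 of the 13, Mvd and Sqle, were called higher under total-count scaling. To Ht the median was -1.73, with a range from -3.54 to -0.06, and all 13 lay below the median of all genes under both scalings, although 4 of them lay above 0 and Mvk and Mvd were called higher with total counts. Under that scaling 5 of the 13 were called lower, and Fdft1 and Msmo1 were not, at -0.57 and -0.28 (edgeR adjusted p = 0.248 and 0.55). From Mt to Ht the median was -1.67 and 5 of 13 fell, namely Idi1, Fdft1, Nsdhl, Sc5d and Dhcr7.

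Sc5d fell the most of the sterol genes. Its level was 447 and 443 CPM in con, 325 for L-con, 350 and 224 for Lt, 518 and 246 for Mt3, then 322 and 83.8 in Mt2, 261 and 81.2 for Mt1, and 34.4 and 42.1 in Ht. Both Ht samples lay under every other tissue sample, and the log2 fold change from con to Ht was -3.54 (SE 0.75, edgeR adjusted p = 0.00271). Idi1, the isomerase that makes dimethylallyl diphosphate, went from 137 and 65.7 CPM in con to 11.9 and 20.5 CPM in Ht, a log2 fold change of -2.65 (SE 0.74, edgeR adjusted p = 0.011). The con samples of Idi1 lay apart from each other, but both lay above the Ht samples, and without con sample 1 the log2 fold change was -2.02 and was not called.

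Pmvk, phosphomevalonate kinase, had a log2 fold change of -2.60 from con to Ht (edgeR adjusted p = 0.00635). Nsdhl and Msmo1, which act in the removal of methyl groups from lanosterol, were at -2.54 and -1.46 on the same scale (edgeR adjusted p = 0.00552 and 0.0412). Dhcr7, the reductase that yields cholesterol, was at -2.21, and Fdft1, squalene synthase, at -1.76 (edgeR adjusted p = 0.00874 and 0.0265). Fdft1 overlaps Ctsb on the opposite strand, and Ctsb reached 107030 counts while Fdft1 had as few as 246, so that its reads may be split if strand was not used.

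Hmgcs1, the synthase that makes HMG-CoA, was among the sterol genes that did not pass at Ht. It stood at 133 and 133 CPM in con, 181 for L-con, 212 and 143 for Lt, 274 and 143 for Mt3, then 172 and 81.5 in Mt2, 457 and 90.5 for Mt1, and 49.0 and 77.1 in Ht. The Ht samples were the lowest 2 of the 13 and Mt1 sample 1 was the highest, and the log2 fold change from con to Ht was -1.08 with TMM (SE 0.67, edgeR adjusted p = 0.186) and 0.11 with total counts. Sqle, squalene epoxidase, had 68.9 and 36.6 CPM in con, 102 and 91.1 for Lt, 163 and 40.9 in Mt1 and 28.0 and 44.0 in Ht. The con and Ht samples of Sqle overlapped, with a log2 fold change of -0.55 with TMM (edgeR adjusted p = 0.416) and 0.64 with total counts. Lss, lanosterol synthase, and Fdps had log2 fold changes of -1.33 and -1.73 (edgeR adjusted p = 0.0605 and 0.0743).

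Mvk and Mvd, the kinase and decarboxylase of the mevalonate branch, had the smallest fold changes of the sterol genes from con to Ht. The level of Mvk was 19.5 and 19.7 CPM in con, 23.9 and 21.6 for Lt, 23.2 and 25.1 for Mt3, then 24.3 and 17.7 in Mt2, 36.0 and 17.0 for Mt1, and 17.1 and 20.1 in Ht. Mvd ran from 8.19 and 14.2 CPM in con to 9.53 and 11.9 CPM in Ht. Their log2 fold changes from con to Ht were -0.07 (SE 0.31) and -0.06 (SE 0.42) with TMM and 1.11 and 1.13 with total counts, and under both scalings they lay below the median of all genes, 0.09 and 1.28. In both genes the con and Ht samples overlapped.

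Mt1 sample 1 stood above the other tissue samples in this pathway. It had the highest CPM of the 13 tissue samples for 9 of the 13 sterol synthesis genes, among them Hmgcs1 at 457, Sqle at 163, Idi1 at 165 and Msmo1 at 229, and its hepatocyte marker sum was 106587 CPM. Its partner, Mt1 sample 2, had 90.5, 40.9, 34.6 and 57.7 CPM for the same 4 genes. The sample was not tested against the others.

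**Figure D2:**
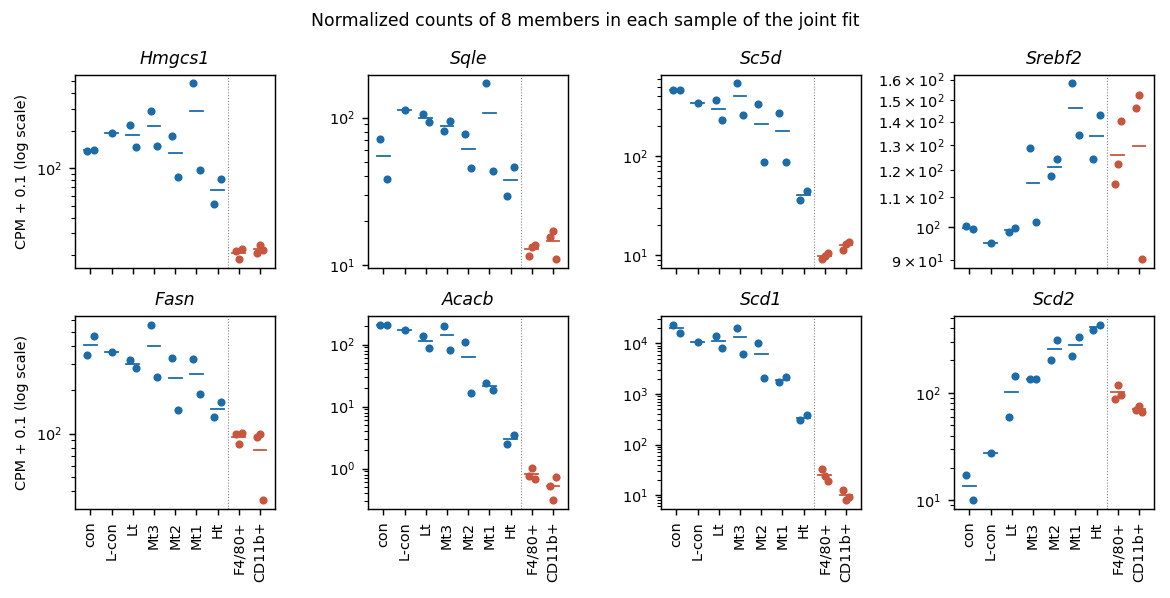
Level of 8 genes in every tissue and sorted sample, as CPM on a log axis after adding 0.1, by group, with lines for group means. Both tables were scaled together. Sc5d, Acacb and Scd1 go down from con to Ht, Scd2 goes up, and Mt1 sample 1 stands high for Hmgcs1 and Sqle. With the tissue samples scaled alone, Srebf2 ran from 90.6 to 151 CPM over them.

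Of the 5 sensing and transport genes, 4 fell from con to Ht and Srebf2 did not pass the test. Srebf2 had 96.9 and 95.3 CPM in con, 90.6 for L-con, 94.4 and 96.8 for Lt, 123 and 97.3 for Mt3, then 112 and 119 in Mt2, 151 and 126 for Mt1, and 118 and 136 in Ht. The Ht samples lay above both con samples, with a log2 fold change of 0.40 (SE 0.18, edgeR adjusted p = 0.0699), and with total counts the gene was called higher at 1.59. Srebf1 went the other way, from 173 and 225 CPM in con through 121 and 114 for Lt, 180 and 113 for Mt3, 97.1 and 67.7 in Mt2 and 112 and 79.8 in Mt1 to 63.0 and 72.2 CPM in Ht. Its log2 fold change to Mt was -0.92 (SE 0.22, edgeR adjusted p = 0.0103), under the size needed for a call, and that to Ht was -1.56 (SE 0.29, edgeR adjusted p = 0.0015). With total counts the Ht value was -0.37 (edgeR adjusted p = 0.186), so that 3 of the 5 genes were called lower under that scaling. Srebf1 overlaps Rai1 on the opposite strand, which had at most 1789 counts against at least 1441 for Srebf1.

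The Insig genes, which encode the anchors of the SREBP complex, fell the most of this group. Insig2 was at 763 and 624 CPM in con, 632 and 293 for Lt, 447 and 303 for Mt3, then 353 and 109 in Mt2, 313 and 123 for Mt1, and 29.9 and 41.5 in Ht. Each Mt and Ht sample lay under both con samples, and the log2 fold changes were -1.38 to Mt (SE 0.47, edgeR adjusted p = 0.0374) and -4.28 to Ht (SE 0.70, edgeR adjusted p = 0.000746). With total counts the Mt value of Insig2 was -0.83 and not called (edgeR adjusted p = 0.0705). Insig1 was called at Ht, at -3.65 (edgeR adjusted p = 0.00166), and had an adjusted p of 0.0963 at Mt by the same test. Stard4, a carrier of cholesterol between membranes, had a log2 fold change of -2.31 to Ht (edgeR adjusted p = 0.00216).

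All 6 fatty acid synthesis genes fell from con to Ht, and 2 of them, Acacb and Thrsp, had already fallen at Mt. With total counts 3 of the 6 were called lower at Ht (Acacb, Me1 and Thrsp), and Acly, Acaca and Fasn had log2 fold changes of -0.07, -0.22 and -0.30 (edgeR adjusted p = 0.834, 0.442 and 0.476). The median log2 fold change of the 6 was -2.06 to Ht. Acacb, the acetyl-CoA carboxylase at the mitochondrial surface whose malonyl-CoA restrains fatty acid oxidation, was at 204 and 200 CPM in con, 164 for L-con, 132 and 85.9 for Lt, 194 and 79.8 for Mt3, then 104 and 15.7 in Mt2, 23.0 and 17.5 for Mt1, and 2.26 and 3.24 in Ht. Every metastasis sample lay under both con samples, and the log2 fold changes were -1.88 to Mt (SE 0.53, edgeR adjusted p = 0.0192) and -6.21 to Ht (SE 0.90, edgeR adjusted p = 0.000429). The Mt call was lost without con sample 1 or con sample 2 (edgeR adjusted p = 0.082 and 0.0888) and with Mt as a single group (0.142), and the Mt value was -2.53 without Mt2 sample 1. Acaca, the cytosolic carboxylase that feeds synthesis, went from 84.9 and 133 CPM in con to 38.5 and 43.9 CPM in Ht, a log2 fold change of -1.40 (SE 0.34, edgeR adjusted p = 0.00526).

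Thrsp, a nuclear protein that follows carbohydrate and thyroid hormone signals in liver and fat, had the widest fall of the 32 genes. It was at 144 and 177 CPM in con, 231 for L-con, 237 and 142 for Lt, 93.3 and 158 for Mt3, then 62.7 and 6.42 in Mt2, 20.0 and 6.17 for Mt1, and 0.783 and 1.32 in Ht. L-con and Lt sample 1 stood above both con samples, the day 11 samples were under them, and Ht was lower still, with log2 fold changes of -2.07 to Mt (SE 0.64, edgeR adjusted p = 0.0269) and -7.28 to Ht (SE 1.15, edgeR adjusted p = 0.000617). The Mt value was -2.88 without Mt2 sample 1. Fasn, fatty acid synthase, was at 335 and 449 CPM in con, 307 and 273 for Lt, 537 and 233 for Mt3, then 317 and 139 in Mt2, 310 and 178 for Mt1, and 124 and 157 in Ht. Its Mt samples lay on both sides of con (edgeR adjusted p = 0.308), and the log2 fold change to Ht was -1.48 (SE 0.49, edgeR adjusted p = 0.0251). Acly, which makes cytosolic acetyl-CoA from citrate, and Me1, a source of NADPH, had log2 fold changes of -1.26 and -2.64 to Ht (edgeR adjusted p = 0.0237 and 0.00233).

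In elongation and desaturation, Scd2 rose and the other 5 genes fell from con to Ht. The mouse genes Scd1 and Scd2 lie near each other on chromosome 19 of GRCm38, Scd1 at chr19:44394451-44407709 on the reverse strand and Scd2 at chr19:44293676-44306864 on the forward strand, and both encode enzymes that put the first double bond into stearoyl-CoA. As near copies they may share reads, and the counting of shared reads was not given in the sources used here. Scd1 was at 22725 and 15445 CPM in con, 9938 for L-con, 13319 and 7677 for Lt, 18944 and 5994 for Mt3, then 9600 and 1962 in Mt2, 1623 and 1996 for Mt1, and 287 and 362 in Ht. The Ht samples lay under all others, and the log2 fold changes were -1.91 to Mt (SE 0.61, edgeR adjusted p = 0.0293) and -5.88 to Ht (SE 1.00, edgeR adjusted p = 0.000878). The Mt call was lost without either con sample, Mt3 sample 2 or either Mt1 sample (edgeR adjusted p from 0.0518 to 0.157), with only the groups compared (0.0807) and with Mt as a single group (0.156).

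Scd2 was at 16.6 and 9.51 CPM in con, 26.0 for L-con, 57.3 and 139 for Lt, 128 and 129 for Mt3, then 194 and 298 in Mt2, 212 and 312 for Mt1, and 363 and 411 in Ht. Every metastasis sample and L-con lay above both con samples, and both Ht samples lay above every Mt sample. The log2 fold changes were 2.91 to Lt (SE 0.46, edgeR adjusted p = 0.00397), 3.95 to Mt (SE 0.45, edgeR adjusted p = 0.000359) and 4.89 to Ht (SE 0.51, edgeR adjusted p = 0.000126). From Mt to Ht the difference was 0.94 (SE 0.33, edgeR adjusted p = 0.0681). The Lt value was 2.13 without Lt sample 2, and its call was lost without con sample 2 and with the replicate number as a block (edgeR adjusted p = 0.0529 and 0.0635), while the direction was higher under both scalings in each comparison.

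The other elongation and desaturation genes fell at Ht. Elovl5, which lengthens polyunsaturated chains, was at 958 and 719 CPM in con and 53.3 and 64.6 CPM in Ht, a log2 fold change of -3.83 (SE 0.80, edgeR adjusted p = 0.00258), and Elovl6, which lengthens palmitate, had one of -2.01 (SE 0.52, edgeR adjusted p = 0.0079), which with total counts was -0.83 and not called (edgeR adjusted p = 0.0688). Elovl6 had as few as 45 counts and overlaps an antisense gene, Gm35986, with up to 74. Fads1 and Fads2, the desaturases of polyunsaturated fatty acids, were at 791 and 551 CPM and at 377 and 317 CPM in con, and at 97.3 and 111 CPM and 29.9 and 35.3 CPM in Ht. Both had already fallen at Mt, with log2 fold changes of -1.18 and -1.19 (edgeR adjusted p = 0.0242 and 0.0465), and at Ht the values were -2.69 and -3.41 (edgeR adjusted p = 0.0013 and 0.00119). With total counts the Mt values of Fads1 and Fads2 were -0.60 and -0.63 and not called (edgeR adjusted p = 0.0767 and 0.119).

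Both glycerolipid assembly genes fell at Mt and at Ht. Dgat2 was at 836 and 942 CPM in con, 557 for L-con, 400 and 329 for Lt, 443 and 343 for Mt3, then 266 and 57.0 in Mt2, 169 and 62.8 for Mt1, and 11.8 and 17.8 in Ht. Each metastasis sample lay under both con samples and under L-con, with log2 fold changes of -1.29 to Lt (SE 0.66, edgeR adjusted p = 0.231), -2.19 to Mt (SE 0.48, edgeR adjusted p = 0.00686) and -5.91 to Ht (SE 0.80, edgeR adjusted p = 0.000329). Gpam, the mitochondrial acyltransferase of the first step, was at 173 and 223 CPM in con and 23.4 and 27.2 CPM in Ht. Its log2 fold changes were -1.20 to Mt and -2.97 to Ht (edgeR adjusted p = 0.0274 and 0.00105). With total counts its Mt value was -0.63 and not called (edgeR adjusted p = 0.0803).

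In the single L-con sample, the tumor-free liver of day 12, the 32 genes had values on both sides of con, and the sample was not tested. Scd1 was at 9938 CPM, Dgat2 at 557, Fads2 at 231 and Gpam at 135, each under both con samples. Sqle was at 108 CPM, Hmgcs1 at 181 and Msmo1 at 146, each above both con samples, as was Thrsp at 231 CPM. Its hepatocyte marker sum was 174887 CPM and its macrophage marker sum 1583 CPM, against 680 to 961 CPM in con.

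The balance of the sterol and the fatty acid genes was described by a score, the mean log2(CPM + 1) of the 13 and of the 12 genes in each sample. The sterol score minus the fatty acid score was -2.39 ± 0.35 for con and -2.02 ± 0.004 for Lt (SD, n = 2 each), and -2.10 for the single L-con sample. It was -2.17 ± 0.31 for Mt3, -1.97 ± 0.32 for Mt2 and -1.17 ± 0.79 for Mt1 (SD, n = 2 each). At Ht it was -1.31 ± 0.07 (SD, n = 2). The 2 Mt1 samples were at -0.62 and -1.73, the first being Mt1 sample 1. Both scores were lower at Ht than in con with TMM, 4.26 against 5.80 for the sterol genes and 5.57 against 8.20 for the fatty acid genes. The difference of 1.08 between con and Ht thus came with a lower level of both. With total counts the median sterol log2 fold change to Ht was -0.54, with 4 of 13 genes above 0, against -1.73 with TMM. The fatty acid genes ranged with TMM from -7.28 (Thrsp), -6.21 (Acacb) and -5.88 (Scd1) to 4.89 (Scd2). Acly, Acaca and Fasn, at -1.26, -1.40 and -1.48, fell less than the sterol median, and Me1, Elovl5, Elovl6, Fads1 and Fads2 fell more. The part of single genes in the scores was not tested. In the sorted cells the difference was -0.74 ± 0.07 in F4/80+ and -0.25 ± 0.21 in CD11b+ (SD, n = 3 each). CD11b+ sample 3 stood apart at -0.01, against -0.38 and -0.35, with Fasn at 39.5 CPM against 105 and 112, and its neutrophil marker sum was 5483 CPM against 1818 and 1407, whose part was not tested.

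**Figure D3:**
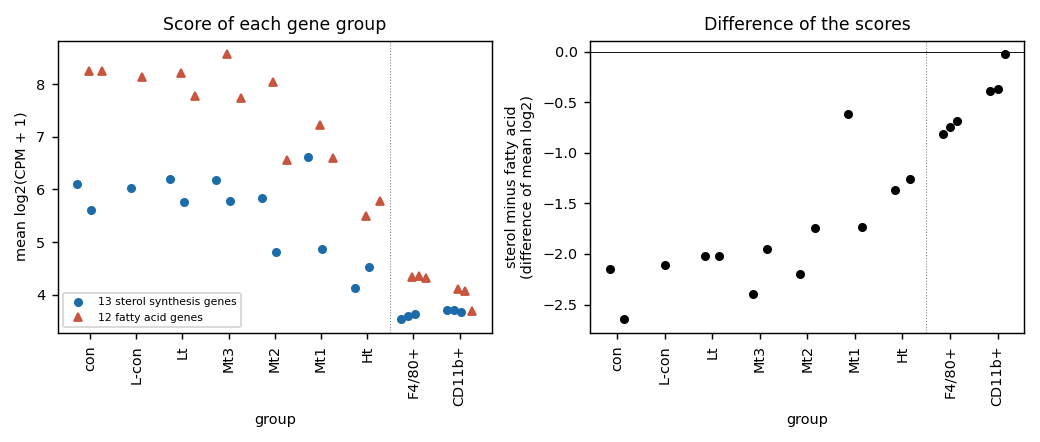
Left, mean log2(CPM + 1) of the 13 sterol synthesis genes (circles) and the 12 fatty acid genes (triangles) in each sample. Right, the sterol score minus the fatty acid score, with sorted samples after the dotted line, both tables scaled together. Con samples sit between -2.65 and -2.15, Ht samples at -1.36 and -1.26, and the sorted samples run from -0.81 to -0.02.

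Ratios within a sample do not depend on its scaling, and 5 pairs of related genes were compared between the 10 metastasis samples and the 2 con samples, as log2 ratios of counts with no correction for length. The exact permutation test, two-sided, cannot give a p below 0.0303 here. Scd2 to Scd1 was at -10.37 and -10.59 in con, -8.55 for L-con, -7.85 and -5.78 for Lt, and 0.34 and 0.18 in Ht. All 10 metastasis samples lay above con, with a mean difference of 6.50 (exact permutation p = 0.0303, adjusted over 5 ratios p = 0.0758). Srebf2 to Srebf1 was at -0.83 and -1.24 in con and 0.90 and 0.91 in Ht, also with 10 of 10 above con and a mean difference of 1.29 (exact permutation p = 0.0303, adjusted p = 0.0758). Neither passed the correction. Both already had the smallest p that 2 con and 10 metastasis samples allow, so that these ratios alone could not have passed it.

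Acacb to Acaca was at 1.26 and 0.59 in con and -3.82 and -3.57 in Ht. In 9 of 10 metastasis samples it lay under con, with a mean difference of -2.08 (exact permutation p = 0.0606, adjusted p = 0.101). Insig2 to Insig1 differed by -0.25 and Elovl6 to Elovl5 by 0.87 (exact permutation p = 0.424 and 0.121, adjusted p = 0.424 and 0.152). The Elovl pair lay above con in 7 of 10 metastasis samples.

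Each gene was also scaled to Alb, which encodes albumin and is itself 1 of the 13 hepatocyte markers. Alb was at 129515 and 108806 CPM in con, 81613 and 53761 for Mt3, then 55078 and 11698 in Mt2, 58365 and 13311 for Mt1, and 1627 and 2498 in Ht. Relative to Alb most genes lay higher in metastases, and the median log2 fold change of all genes was 2.04 from con to Mt and 5.99 from con to Ht. Of the 32 genes, 27 were called higher from con to Ht and 0 lower, against 91% of all genes called higher, and 5 were called higher from con to Mt (Hmgcs1, Mvd, Sqle, Srebf2 and Scd2), against 36.4%. From con to Lt, Scd2 alone was called, against 4.17%, and it was lost with a hepatocyte list in place of Alb (edgeR adjusted p = 0.0547) and without con sample 1, con sample 2 or Lt sample 2 (0.266, 0.42 and 0.63). From Mt to Ht, 27 were called, against 90.8%. These comparisons share their samples with those above. Leaving out single samples moved the Mt count from 5 to between 1 and 7, with 1 without either con sample or either Mt3 sample and 3 without Mt2 sample 2. Calls over all genes, 6275 of 17187 in both directions, became 1159 and 859 without con sample 1 or 2, 5565 and 4191 without Mt3 sample 1 or 2, 11089 without Mt2 sample 1 and 5065 without Mt2 sample 2.

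The 5 genes that were not called relative to Alb from con to Ht were Insig2, Acacb, Thrsp, Scd1 and Dgat2. Scd1 stood at 175 and 142 counts per 1000 Alb counts in con, 106 for L-con, 135 and 154 for Lt, 232 and 111 for Mt3, then 174 and 168 in Mt2, 27.8 and 150 for Mt1, and 176 and 145 in Ht. Apart from Mt1 sample 1 at 27.8, all samples lay within 106 to 232, and the log2 fold change from con to Ht was 0.02 (SE 0.81, edgeR adjusted p = 0.985). Dgat2 was at 6.45 and 8.66 per 1000 Alb in con and 7.27 and 7.11 in Ht, a log2 fold change of -0.07 (SE 0.87, edgeR adjusted p = 0.938). Acacb was at 1.57 and 1.84 in con, 0.394 in Mt1 sample 1 and 1.39 and 1.30 in Ht, a log2 fold change of -0.35 (SE 0.91, edgeR adjusted p = 0.715). With standard errors from 0.81 to 0.91, a p that misses the threshold does not show that these genes kept a fixed level per Alb.

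Thrsp lay below Alb, at 1.11 and 1.63 per 1000 Alb in con and 0.481 and 0.530 in Ht (log2 fold change -1.44, SE 0.93, edgeR adjusted p = 0.141). Insig2 was at 5.89 and 5.73 in con and 18.4 and 16.6 in Ht (1.59, SE 0.89, edgeR adjusted p = 0.0892). The 13 sterol synthesis genes were all called higher per Alb, against 91% of all genes. Their median log2 fold change was 4.19, with a range from 2.34 for Sc5d to 5.84 for Mvd, all under the 5.99 of the median gene. The 12 fatty acid genes had a median of 3.21. At the ends of the 32, Scd2 reached 10.81 (SE 1.49, edgeR adjusted p = 1.93e-06), from 0.129 and 0.0874 to 223 and 165 per 1000 Alb, and Srebf2 reached 6.29 (SE 1.18, edgeR adjusted p = 2.72e-05).

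**Figure D4:**
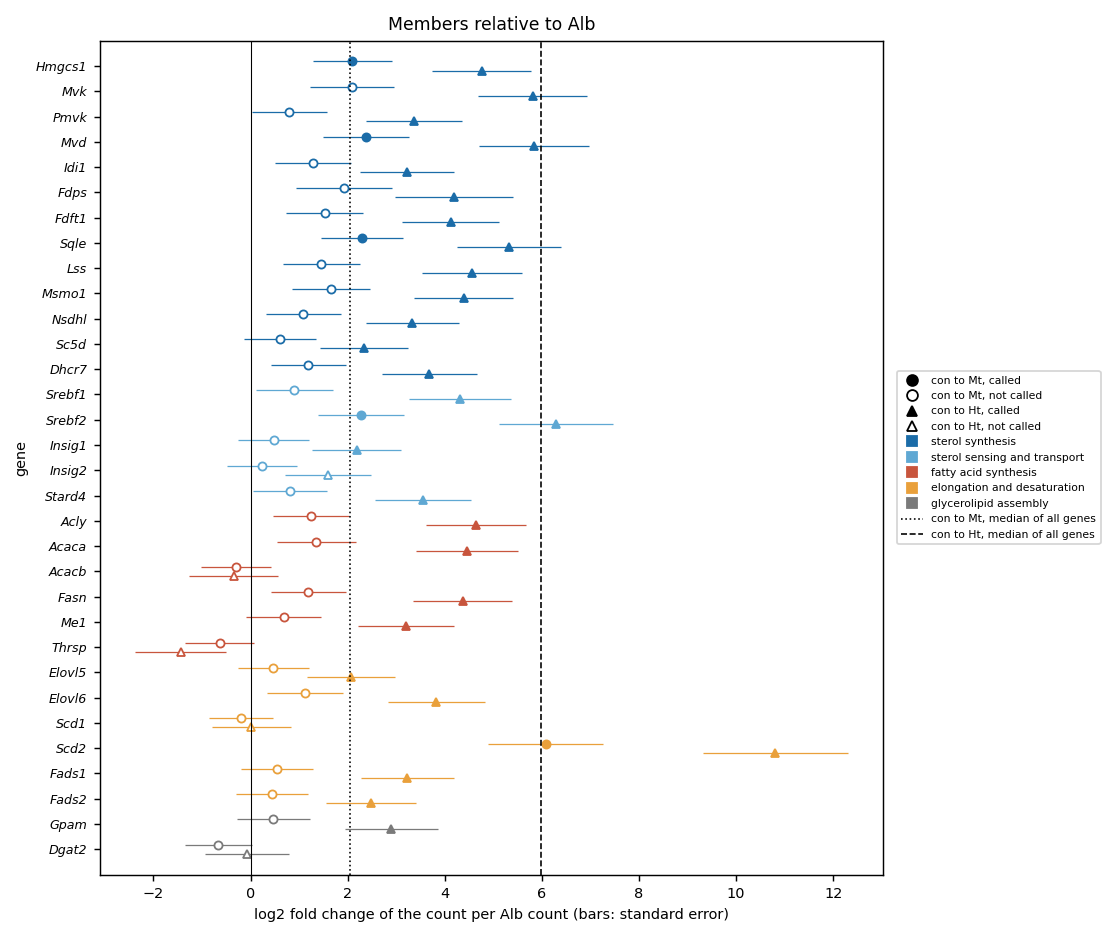
Log2 fold change of the 32 genes relative to Alb from con to Mt and from con to Ht, with bars for the standard error and vertical lines at the median of all genes, 2.04 and 5.99. Scd1, Dgat2, Acacb and Thrsp lie near or left of 0, the sterol genes lie between 0 and the median line for Ht, and Scd2 and Srebf2 lie to its right.

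The sorted cells were compared to ask whether the F4/80+ and the CD11b+ populations of the Mt2 tissue differ in these genes. Of the 31 genes tested, 0 were called by edgeR's quasi-likelihood test and 1, Scd1, by DESeq2, against 0.0771% of 14263 genes by edgeR and 2.1% by DESeq2, and 4 of 31 had an unadjusted p under 0.05, against 10.5% of all genes. Thrsp had 6, 0 and 3 counts in F4/80+ and 0, 1 and 6 in CD11b+ and was not tested. Without CD11b+ sample 3, 0 of the members were called, and 136 of all genes were. The median log2 difference of F4/80+ from CD11b+ was 0.04 over the 31 genes. Dgat2 had the lowest difference and Scd1 the highest. Of the 11 fatty acid genes tested, 10 lay above 0 (median 0.32), and of the 13 sterol genes 10 lay below 0 (median -0.20). Of all 14263 genes, 7082 lay above 0 and 7181 below. The part of CD11b+ sample 3, which stood apart in the scores, was not tested. Endothelial markers (10 genes) summed to 136 to 295 CPM in F4/80+ and 61.3 to 93.0 CPM in CD11b+, and neutrophil markers (9 genes) to 190 to 736 CPM and 1407 to 5483 CPM, and the part of these cells was not tested.

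Scd1 and Dgat2 differed the most between the populations. Scd1 was at 35.3, 26.0 and 20.8 CPM in F4/80+ and 14, 8.85 and 10.3 CPM in CD11b+, without overlap (log2 difference 1.30, SE 0.26, unadjusted p = 0.00105, edgeR adjusted p = 0.102). Alb was at 229, 122 and 122 CPM in the same F4/80+ samples and 48.8, 36.5 and 106 CPM in CD11b+, also higher in F4/80+, and its part was not tested. Dgat2 was at 6.21, 11.9 and 10.6 CPM in F4/80+ and 13.9, 17.7 and 26.2 CPM in CD11b+ (log2 difference -1.0, edgeR adjusted p = 0.359). Scd2 was at 95.9, 128 and 104 CPM against 77.8, 83.8 and 74.6 CPM (log2 difference 0.48, edgeR adjusted p = 0.377).

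Against the Mt2 tissue from which such cells came, 25 of 32 genes were lower in F4/80+ and 25 of 32 in CD11b+ and none was higher, against 25.2% and 26.3% of 18407 genes called lower and 17.2% and 17.6% called higher. The 2 comparisons share the Mt2 samples, and Mt2 samples differed in their hepatocyte sum as given above. Without Mt2 sample 1 the calls were 20 for F4/80+ and 18 for CD11b+, and those lost in both were Dhcr7, Nsdhl, Insig1, Fasn and Fads1, with Stard4 and Fdft1 lost in CD11b+ as well. Whether these calls were lost more often than those of all genes was not tested. Kind of sample, sequencing table, sex and animal source cannot be told apart here. The 7 genes that were not called were the same in both, namely Mvk, Pmvk, Mvd, Fdps, Srebf1, Srebf2 and Acly. The sterol genes had a median log2 difference of -2.14 in F4/80+ and -1.87 in CD11b+ (9 of 13 lower in each), and the 12 fatty acid genes of -2.91 and -3.09 (11 of 12 lower in each).

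Srebf2 was at 125, 132 and 152 CPM in F4/80+ and 163, 170 and 103 CPM in CD11b+, with log2 differences from Mt2 of 0.06 and 0.10 (edgeR adjusted p = 0.839 and 0.712). Acly was at 237, 232 and 219 CPM and 221, 276 and 146 CPM, with log2 differences of 0.06 and -0.09 (SE 0.35 in each, edgeR adjusted p = 0.905 and 0.84). Mvd was at 24.0, 24.1 and 19.7 CPM and 27.2, 30.8 and 27.2 CPM, which lay above both Mt2 samples, with differences of 0.48 and 0.75 (edgeR adjusted p = 0.223 and 0.0597).

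Scd2 was lower in the sorted cells than in Mt2, unlike its rise across the tissue groups, with log2 differences of -1.35 for F4/80+ and -1.88 for CD11b+ (edgeR adjusted p = 0.00286 and 0.000208). Without Mt2 sample 2 the F4/80+ value was -0.96, under the size needed for a call. Scd1 was lower as well, at -7.91 and -9.26 (edgeR adjusted p = 7.32e-07 and 2.55e-07), with -6.35 and -7.70 without Mt2 sample 1 and -8.60 and -9.96 without Mt2 sample 2. In FPKM Scd2 lay at 17.6 to 23.6 in F4/80+ and 13.7 to 15.4 in CD11b+, and Scd1 at 4.31 to 7.30 and 1.83 to 2.90, so that Scd2 exceeded Scd1 in every sorted sample. Sc5d and Idi1 had the lowest sterol values against Mt2, at -4.45 and -3.50 in F4/80+ and -4.10 and -3.35 in CD11b+. Without Mt2 sample 1 they were -3.18 and -2.64 in F4/80+ and -2.83 and -2.49 in CD11b+, and without Mt2 sample 2 Sc5d was at -5.08 and -4.74.

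**Figure D5:**
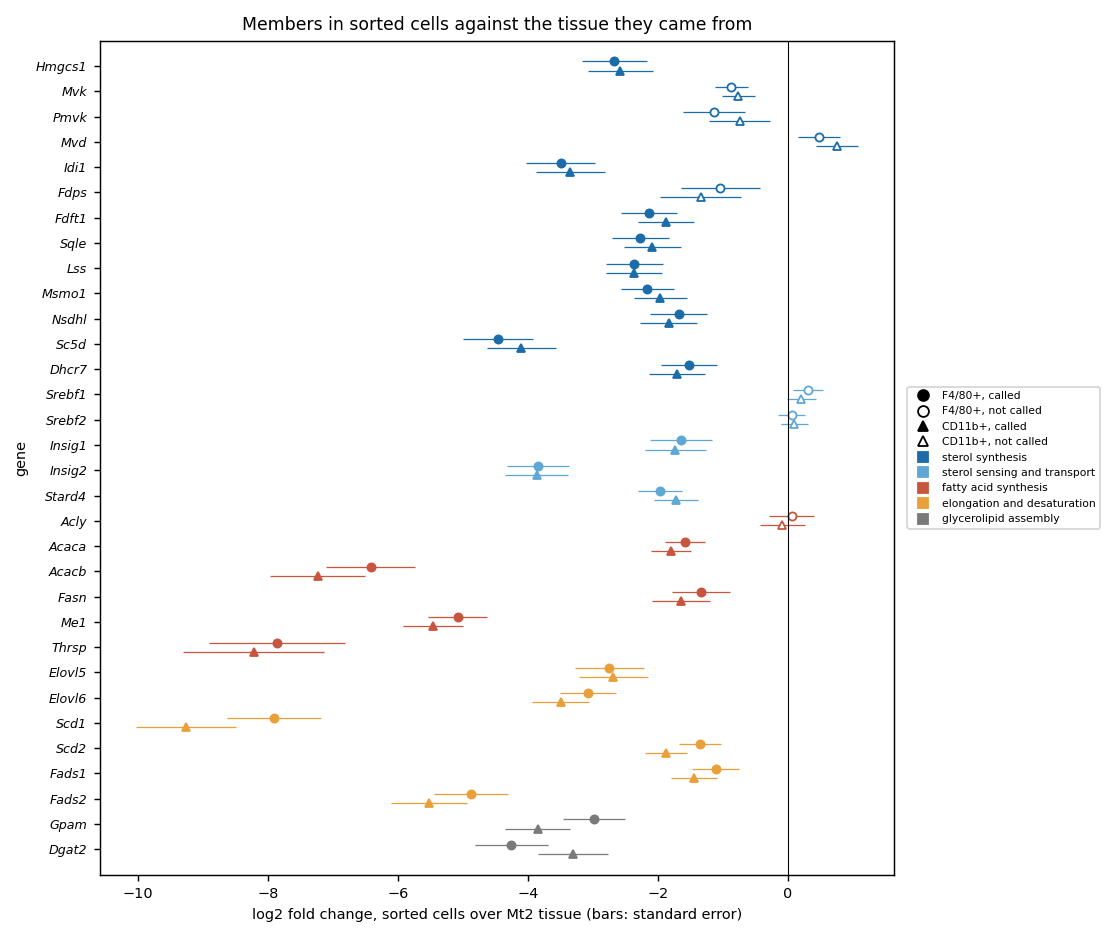
Log2 difference of the 32 genes between F4/80+ cells (circles) or CD11b+ cells (triangles) and the Mt2 tissue, with bars for the standard error and filled symbols for calls. Most genes lie left of 0, Scd1 is the lowest at -7.91 and -9.26, and Mvd, Srebf1, Srebf2 and Acly lie near 0.

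Other genes of the same pathways, from a list of 41 genes chosen with earlier results known, were counted in the same way, against 20.2% of all genes called higher and 10.3% lower to Mt, and 25.8% and 24.1% to Ht. Among 8 other sterol synthesis genes, 0 rose and 2 fell from con to Mt, and 1 rose and 6 fell from con to Ht. Among 22 other lipogenic genes, 0 rose and 11 fell to Mt, and 0 rose and 16 fell to Ht. Elovl3, which lengthens saturated chains in liver, skin and brown fat, had log2 fold changes of -2.38 to Mt (SE 0.57) and -8.29 to Ht (SE 1.06). Scd3, a further stearoyl-CoA desaturase gene, had 0 counts in Ht and was at least 11.9-fold lower there than in con, taking 3 counts per sample as the limit, and Elovl2, which lengthens polyunsaturated chains, was at -6.05 on the log2 scale.

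Of 11 other genes of sterol sensing and transport, 2 rose and 0 fell from con to Lt, 2 rose and 3 fell to Mt, and 3 rose and 5 fell to Ht, with 12.7% of all genes called in either direction to Lt and the shares to Mt and Ht as for the other lists. Soat1, which esterifies cholesterol and is known from macrophages, rose by 1.60, 2.24 and 2.76 on the log2 scale to Lt, Mt and Ht. Against Mt2, 5 of these 11 genes were called higher and 1 lower in F4/80+ cells, and 4 higher and 0 lower in CD11b+ cells. Of all genes, 17.2% and 17.6% were called higher and 25.2% and 26.3% lower. In the sorted cells Soat1 was 2.11 and 2.03 higher than in Mt2, and Abcg1, an exporter of cholesterol to high-density lipoprotein, 2.87 and 2.34 higher. Macrophage markers (13 genes) summed to 680 to 961 CPM in con and 2134 to 2171 CPM in Ht and to at least 13979 CPM in the sorted cells, and their part in these values was not tested. Elovl3 had 0 counts in all 6 sorted libraries, at least 1591-fold lower than Mt2 in F4/80+ and at least 1604-fold lower in CD11b+.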

How the data were processed

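The deposited values were raw read counts per gene, as whole numbers, in 1 table of 14 tissue libraries and 1 of 6 sorted libraries. The authors made these counts from libraries prepared with the NEBNext Ultra RNA kit, and the submitters' processing notes name CASAVA, HISAT2 2.0.5 and featureCounts 1.5.0-p3 and the build GRCm38 (mm10). Whether counting used strand is not given in the sources used here. The sorted table held no gene names and was matched by gene identifier.

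Counts were scaled by TMM and tested with edgeR 4.0.16 (R 4.3.3) by quasi-likelihood F-tests, with each tissue group as a coefficient, Benjamini-Hochberg adjustment over all genes and a call at adjusted p under 0.05 and a log2 fold change of at least 1 in size. All 13 tissue samples entered 1 fit, the 6 sorted samples another, and all 19 a joint fit. Con to Mt used the mean of Mt3, Mt2 and Mt1. Fits relative to Alb used the Alb count of each sample as its library size. CPM are counts per 1000000 after scaling. FPKM were computed here with the gene lengths of the deposited table. Tissue values came from the tissue fit, values of sorted cells from their own fit, and differences against Mt2 from the joint fit. Scores used a pseudocount of 1 and ratios of 0.5. Ratios were tested with exact permutation tests in scipy 1.17.1 (Python 3.11.15), and figures were drawn with matplotlib 3.10.9.

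The libraries Ht 1 and Ht 3 differed by a chi-square per degree of freedom of 30.3, against 29.1 and 13.2 for the other pairs of Ht, and were summed because of the Methods. Precision is set by the 16032085 to 20548370 counts per library, and intervals of counts cover counting error only. Columns of values that matched no sample numbered 0. Values per sample were given for genes that were called, that carried a ratio test or that were at the ends of their role group, and of the other pathway genes the 3 with the widest change among those called were named, with Soat1 and Abcg1 also followed across comparisons. Idi1, Fdps and several uncalled genes were described after their values were seen. The members, gene lists and markers, some of them taken from an earlier analysis, were chosen with earlier results of these data known. Alternatives were DESeq2 1.42.0, total-count scaling, other low-count filters, fits of only the 2 groups, fits with Mt as 1 group, other pseudocounts, a hepatocyte list in place of Alb, leaving out each sample and replicate blocks. The fits were tested on simulated data.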

Additional observations from a re-analysis of the deposited data

How the results depend on the processing

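Of the alternatives to single gene results, 2014 kept their direction and side of the threshold, 219 kept only the direction, 5 passed newly and 4 reversed. The reversed values were Srebf2 from con to Lt, at 0.035 with a minimum of 10 counts and 0.29 with total counts against -0.01, and Hmgcs1 and Sqle from con to Ht, at 0.11 and 0.64 with total counts. Counts of called members, sums of both directions, moved by over 1.5 times as follows, and the cause was not tested. From con to Lt, 1 became 3 without a filter, 3 with only the groups compared, 0 with the replicate block and 3 with crossed numbers, an alternative chosen after seeing the data. Relative to Alb, that 1 became 0 with a hepatocyte list and 2 with the replicate block. From con to Mt, 9 became 3 with only the groups compared or with Mt as a single group, and from Mt to Ht, 18 became 9 with only the groups compared. Between F4/80+ and CD11b+, 0 became 1 with DESeq2 and 1 without a filter.

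Leaving out single samples gave 0 to 1 calls for con to Lt (0 without con sample 2) and 0 to 1 relative to Alb (0 without either con sample, when 2 and 4 of all genes were called, or Lt sample 2, when 207 were), 2 to 15 for con to Mt and 1 to 7 relative to Alb, 18 to 22 for con to Ht and 21 to 25 relative to Alb, 0 to 25 for Mt to Ht (0 without either Ht sample, when 0 of all genes were called) and 22 to 28 relative to Alb. It gave 0 to 0 between the sorted populations, 20 to 26 for F4/80+ against Mt2 and 18 to 25 for CD11b+ against Mt2. Where a group was left with 1 sample, that sample was assumed to vary like the others.

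Same-numbered samples did not deviate together in the comparisons checked. Correlations were -0.165 for con and Lt, -0.136 for con and Mt, -0.101 for con and Ht and -0.405 for Mt and Ht, so that the numbers were not taken as pairs. Lt, Mt3, Mt2 and Mt1 were not checked against one another, nor Lt against Ht. The hepatocyte sum was lower in sample 2 than in sample 1 in con, Lt, Mt3, Mt2 and Mt1, but higher in Ht. With the replicate block, Scd2 from con to Lt had an edgeR adjusted p of 0.0635, and the counts were 13 for con to Mt, 27 for con to Ht, 18 for Mt to Ht and 0 between the sorted populations. Over all genes, total counts in place of TMM gave 5556 higher and 575 lower calls from con to Mt against 3477 and 1770, and 8822 and 2249 from con to Ht against 4437 and 4139. From Mt to Ht they gave 2587 and 1773 against 257 and 2306.

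With 2 samples a group, con and Ht values rest on few libraries, and low counts limit Fdps in tissue and Thrsp in sorted cells. Hepatocyte, fibroblast and proliferation markers moved with the tissue groups, and con differed from all groups, and Ht from all other metastases, in both day and size class. Levels of sorted cells and tissue came from separate tables, which also differed in sex pattern.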

Other observations

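Mt1 sample 1 also stood apart per Alb count, though in the other direction for lipogenic genes. Its values were the lowest of the 13 tissue samples for 3 of 6 fatty acid synthesis genes, 3 of 6 elongation and desaturation genes and 1 of 2 glycerolipid assembly genes, with Scd1 at 27.8 per 1000 Alb counts, Acacb at 0.394, Thrsp at 0.343, Me1 at 1.18 and Dgat2 at 2.90. In the same library Hmgcs1 was at 7.82 and Idi1 at 2.82 per 1000 Alb counts, against 3.12 and 1.42 in Mt2 sample 1, whose Alb level was 55078 CPM against 58365 CPM. The sample was not tested against the others.

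Among the lipogenic genes outside the 32, Mlxipl, which encodes the carbohydrate response factor ChREBP, had a log2 fold change of -5.80 from con to Ht, and Pklr, the liver pyruvate kinase whose product feeds lipogenesis, had -5.57. In CD11b+ cells Pklr was at or under the limit of 3 counts per library, at least 363-fold lower than in Mt2. Both genes were named after their values were seen.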
